A study of Mus with 18 samples.

Results

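The Bcl2 family decides whether a cell keeps its mitochondria sealed or opens them and dies by apoptosis. The 10 genes described here were chosen by symbol: *Bcl2*, *Bcl2l1*, *Mcl1*, *Bax*, *Bak1*, *Bid*, *Bad*, *Bcl2l11*, *Bbc3* and *Pmaip1*. All 10 were present among the 21401 gene symbols listed for each of 2 RNA-seq experiments. The rule named symbols and no measured value, but earlier results of these data were known when it was set.

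The family has 3 functional classes. The anti-apoptotic proteins Bcl2, Bcl-xL (from *Bcl2l1*) and Mcl1 hold back the effectors Bax and Bak1, which can form pores in the outer mitochondrial membrane and release cytochrome c. The BH3-only proteins sense stress and either neutralise the anti-apoptotic proteins or activate the effectors. Mcl1 protein is short-lived, so its amount follows synthesis closely, and Mcl1 is needed for the survival of many cell types, heart muscle cells among them.

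Moringa isothiocyanate-1 (MIC-1), a compound isolated from *Moringa oleifera* seeds, was given together with lipopolysaccharide (LPS), a bacterial cell wall component that triggers inflammation. One experiment used C2C12, a wild-type mouse cell line of muscle precursors, and the other used gastrocnemius muscle from wild-type male C57BL/6 mice, with 3 libraries in each of the groups control, LPS and LPS-MIC-1, 18 libraries in all. LPS was set against control, and LPS-MIC-1 against LPS and against control. Neither experiment had a group given MIC-1 without LPS.

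The cell groups were a vehicle control, LPS at 1 μg/mL, and LPS at 1 μg/mL with MIC-1 at 10 μM for 24 h, as labelled. The study's text gives a lower MIC-1 concentration for the sequenced cells, and its methods name ethanol as the vehicle where the labels name saline. The mice received vehicle (saline as labelled, DMSO in the study's description), LPS at 10 mg/kg by intraperitoneal injection, or MIC-1 at 80 mg/kg by daily gavage for 3 days followed by the same LPS injection, and muscle was taken 16 h after LPS. Whether the 3 libraries of a cell group came from separate cultures was not stated, so p-values in the cells measure the spread between those libraries, which may be technical. The labels also do not tie each muscle library to 1 mouse. The ages of the mice were not given in the sources used here.

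Values are FPKM, read fragments scaled for transcript length and library size, so levels can be compared between genes of a library. Comparisons between libraries are less direct, because the FPKM total over all genes was not equal among groups. No C2C12 control library totalled above 552373, while all other C2C12 libraries reached at least 667207. In muscle, totals stayed at or below 672157 under LPS-MIC-1 and were at least 715513 otherwise. Fold changes between groups therefore depend on the scaling. The number of reads was unknown, but the steps between the lowest values placed the C2C12 libraries at relative depths of 0.464 to 1.02 against control replicate 1, with LPS-MIC-1 replicate 3 the shallowest, and the muscle libraries at 0.988 to 1.11. Markers of cell identity went against 6 of the 9 cell labels. The summed FPKM of 12 macrophage genes was 10755 to 10801 in the libraries labelled C2C12 control, 7665 to 7901 in those labelled C2C12 LPS and 80.3 to 288 in those labelled C2C12 LPS-MIC-1, where replicate 1 was the highest. The summed FPKM of 12 myogenic genes was 0.136 to 2.12, 0.364 to 2.35 and 1000 to 1254 in the same order, and the myogenic regulators *Myod1*, *Myf5*, *Myog* and *Pax7* were below 0.1 in all control and LPS libraries. Every C2C12 comparison with LPS-MIC-1 therefore compares libraries with opposite identity markers, and treatment and cell makeup cannot be told apart in it.

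In the libraries labelled C2C12, the family was highly transcribed and uneven. *Bax* was the most abundant member in control (318 ± 4.20 FPKM, SD, n = 3), at the 98.9th percentile of all genes, followed by *Mcl1* at 190 ± 4.74, *Bak1* at 132 ± 2.99 and *Bid* at 45.9 ± 1.97. *Bcl2*, the founding member, was the least abundant at 2.29 ± 0.0526, and *Bcl2l1* and *Bcl2l11* were the only neighbours in the order whose control values overlapped. In LPS the order changed, with *Mcl1* at 436 ± 1.93 above *Bax* at 303 ± 6.78, and the ranges of *Pmaip1* and *Bid* overlapped. In LPS-MIC-1, *Bax* led at 354 ± 35.9, and *Mcl1* at 69.6 ± 12.5 overlapped with *Bak1* at 69.8 ± 9.46, as *Bbc3* did with *Bcl2l1*.

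**Figure D1:**
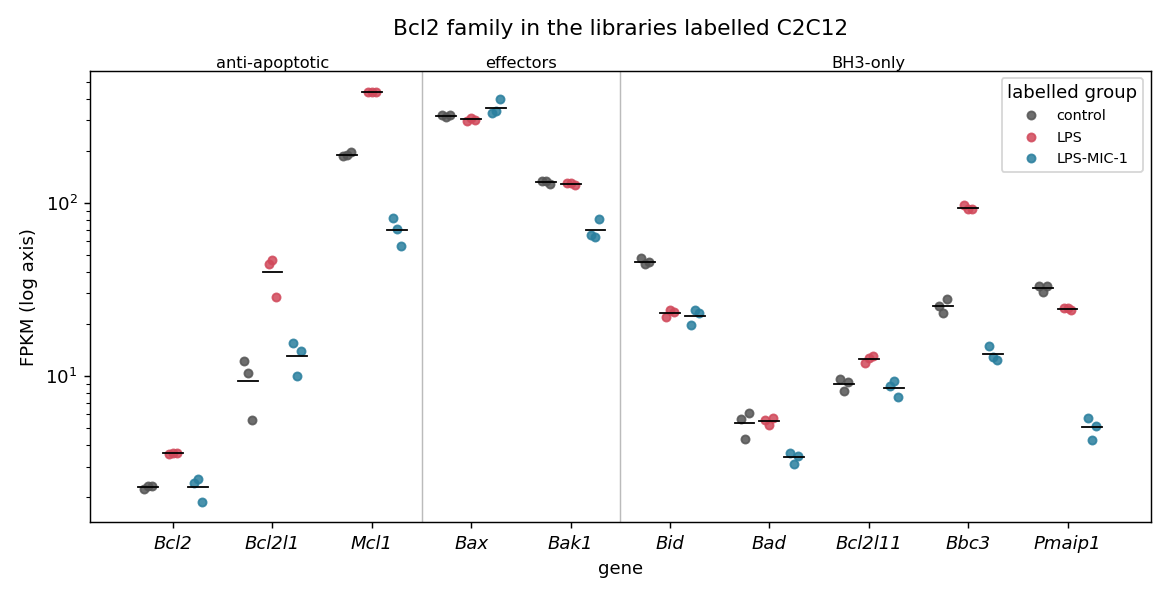
FPKM on a log axis (y) of the 10 members (x, ordered by class) in the 9 libraries labelled C2C12. Points are libraries, coloured by group, and black bars are group means of 3. *Mcl1*, *Bcl2l1* and *Bbc3* were highest in all 3 LPS libraries, and *Pmaip1* was lowest in all 3 LPS-MIC-1 libraries.

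Between LPS and control in these libraries, all 3 anti-apoptotic genes rose, neither effector passed the test (*Bax* did, as lower, in 2 alternatives given with its values), and the BH3-only genes split, with *Bbc3* and *Bcl2l11* higher and *Bid* and *Pmaip1* lower. The test was limma on log2(FPKM + 0.1) over all genes with a mean above 1 FPKM, and a member passed at an adjusted p (Benjamini-Hochberg over all genes tested) under 0.05. In this comparison 5 members were higher and 2 lower, against a background of 31.1% of all genes higher and 32.1% lower. Set against those shares, the counts of 5 and 2 in 10 are not a result about the family. The groups did not overlap for 5 higher and 3 lower members (background 39.4% and 40.1%). The thresholds the study set in these cells, an absolute log2 fold change above 1 and an adjusted p under 0.001, were met by 3 members that were higher (*Bcl2l1*, *Mcl1* and *Bbc3*; background 10.9%) and by none that were lower (background 10%), where 2 were lower at an unadjusted p under 0.05 (background 33.6%). That 0 became 1 without control replicate 2, without LPS replicate 2 or under quantile normalization, through *Bid* (log2 fold change -0.98, and -1.01 to -1.09 in those 3 alternatives). The count of higher members was 2 to 3 over single libraries left out, where the adjusted p of *Bcl2l1* ran from 0.000953 to 0.00348 by limma. Over all alternatives the log2 fold change of *Mcl1* ran from 0.91 to 1.22, and that of *Bbc3* from 1.81 to 1.99. The median log2 fold change was 0.26 over the 10 members and 0 over all 10877 genes tested.

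LPS-MIC-1 against LPS, in the same experiment, ran the other way for most members: 8 were lower, 1 was not past the test, and *Bax* was higher by 0.22 on the log2 scale, a direction that reversed to -0.15 under quantile normalization. The background was 43.2% of all genes lower and 41.4% higher, and 8 lower members and 1 higher did not overlap between groups (background 43.7% and 41.8%). *Mcl1*, *Bbc3* and *Pmaip1* also met the thresholds of the study (background 25.6% lower), and no higher member did (background 24.3%), where *Bax* was higher at an unadjusted p under 0.05. The median log2 fold change was -0.79 over the members and -0.05 over all genes. Both comparisons use the same 3 LPS libraries, so a high value in LPS enters both with opposite sign, and they are given side by side below. As the tissue and cultures were sequenced in bulk, fewer cells of a type and less RNA per cell cannot be told apart.

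*Mcl1* carried most of the anti-apoptotic signal in the cell libraries. It measured 186, 188 and 195 FPKM in control, 438, 437 and 434 in LPS, and 81.5, 70.7 and 56.6 in LPS-MIC-1. The 3 groups did not overlap, with LPS highest and LPS-MIC-1 lowest. It had a log2 fold change of 1.20 (SE 0.114, adjusted p = 3.72e-05) for LPS against control, -2.66 (SE 0.114, adjusted p = 1.28e-07) for LPS-MIC-1 against LPS and -1.46 (adjusted p = 5.37e-06) for LPS-MIC-1 against control.

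*Bcl2l1*, whose long product Bcl-xL protects mitochondria, varied more among replicates. It measured 12.2, 10.4 and 5.57 FPKM in control, 44.3, 47.0 and 28.4 in LPS, and 15.4, 9.98 and 14.0 in LPS-MIC-1. Replicate 3 was the lowest library of both the control and the LPS group, yet every LPS library stood above every other library. It rose by 2.11 on the log2 scale with LPS (SE 0.327, adjusted p = 0.000614) and was lower by 1.59 under LPS-MIC-1 than under LPS (log2 fold change -1.59, SE 0.327, adjusted p = 0.00193). LPS-MIC-1 and control overlapped (log2 fold change 0.53, 95% confidence interval -0.23 to 1.28, adjusted p = 0.167).

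*Bcl2* itself was low but tightly measured, at 2.23, 2.32 and 2.32 FPKM in control, 3.55, 3.59 and 3.59 in LPS, and 2.43, 2.55 and 1.88 in LPS-MIC-1. The LPS libraries were the highest, and control and LPS-MIC-1 overlapped. On the log2 scale the fold change was 0.62 for LPS against control (SE 0.127, adjusted p = 0.00287) and -0.64 for LPS-MIC-1 against LPS (adjusted p = 0.00162), and -0.01 for LPS-MIC-1 against control (95% confidence interval -0.31 to 0.28, adjusted p = 0.92).

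The effector *Bax*, a pore former that waits in the cytosol, measured 320, 313 and 320 FPKM in control, 297, 310 and 303 in LPS, and 330, 338 and 395 in LPS-MIC-1. The LPS-MIC-1 libraries were above both other groups, and replicate 3 was above its 2 replicates. The fitted log2 fold change was -0.07 for LPS against control (95% confidence interval -0.23 to 0.09, adjusted p = 0.435). It passed as lower under quantile normalization (-0.32, adjusted p = 1.55e-05) and with only the 6 libraries compared (-0.07, adjusted p = 0.0339). LPS-MIC-1 against LPS gave 0.22 (SE 0.069, adjusted p = 0.0167). This call was lost without LPS replicate 1 (adjusted p = 0.0543), and quantile normalization gave -0.15 (adjusted p = 0.00106), so no direction of *Bax* held across scalings in that comparison.

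*Bak1*, the effector that resides in the mitochondrial membrane, measured 134, 134 and 129 FPKM in control, 131, 130 and 127 in LPS, and 65.3, 63.3 and 80.6 in LPS-MIC-1. Control and LPS overlapped (log2 fold change -0.03, 95% confidence interval -0.23 to 0.16, adjusted p = 0.774), whereas every LPS-MIC-1 library was below them. It was lower by 0.90 under LPS-MIC-1 than under LPS (log2 fold change -0.90, SE 0.085, adjusted p = 1.6e-05).

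Among the BH3-only genes, *Bbc3*, which encodes Puma, a p53 target that binds all anti-apoptotic members, had the widest range. It measured 25.5, 23.2 and 27.8 FPKM in control, 96.6, 92.2 and 92.2 in LPS, and 14.9, 12.9 and 12.4 in LPS-MIC-1. The 3 groups were apart, in the order LPS, control, LPS-MIC-1. On the log2 scale the fold change was 1.88 for LPS against control (SE 0.0873, adjusted p = 8.04e-07), -2.80 for LPS-MIC-1 against LPS (SE 0.0873, adjusted p = 2.44e-08) and -0.92 for LPS-MIC-1 against control (adjusted p = 1.8e-05).

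*Pmaip1* encodes Noxa, which binds mainly Mcl1 and promotes its breakdown. It measured 33.1, 30.4 and 33.0 FPKM in control, 24.6, 24.8 and 24.0 in LPS, and 5.72, 4.30 and 5.13 in LPS-MIC-1. The groups were apart and fell in that order, unlike *Mcl1*, *Bcl2l1* and *Bbc3*, which were highest in LPS. It had a log2 fold change of -0.39 for LPS against control (SE 0.0986, adjusted p = 0.00811), -2.26 for LPS-MIC-1 against LPS (adjusted p = 1.4e-07) and -2.66 for LPS-MIC-1 against control (adjusted p = 6.1e-08).

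*Bid*, which caspase-8 cleaves to link death receptors to mitochondria, measured 48.0, 44.1 and 45.5 FPKM in control, 21.9, 24.0 and 23.5 in LPS, and 19.6, 24.1 and 23.1 in LPS-MIC-1. Control stood above both LPS groups, which overlapped. It fell with LPS (log2 fold change -0.98, SE 0.0824, adjusted p = 1.78e-05), and LPS-MIC-1 against LPS gave -0.06 (95% confidence interval -0.25 to 0.13, adjusted p = 0.508). *Bid* was the only member that did not pass the test in that comparison.

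*Bcl2l11*, which encodes Bim, measured 9.66, 8.24 and 9.23 FPKM in control, 11.9, 12.8 and 13.1 in LPS, and 8.77, 9.32 and 7.57 in LPS-MIC-1. The LPS libraries were the highest, and the other 2 groups overlapped. The fitted log2 fold change was 0.48 with LPS (SE 0.0991, adjusted p = 0.00309) and -0.56 for LPS-MIC-1 against LPS (adjusted p = 0.000806).

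*Bad*, which survival kinases keep inactive by phosphorylation, measured 5.63, 4.36 and 6.12 FPKM in control, 5.59, 5.20 and 5.69 in LPS, and 3.61, 3.10 and 3.46 in LPS-MIC-1. Control and LPS overlapped (log2 fold change 0.05, 95% confidence interval -0.27 to 0.36, adjusted p = 0.80), and LPS-MIC-1 was below both. It was lower under LPS-MIC-1 than under LPS (log2 fold change -0.68, SE 0.136, adjusted p = 0.00162).

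Against control, 6 of the 10 members were lower in LPS-MIC-1 (*Mcl1*, *Bak1*, *Bid*, *Bad*, *Bbc3* and *Pmaip1*) and 0 were higher by limma at an adjusted p under 0.05, where 0 were also higher at an unadjusted p under 0.05 (background 39.9%). The background was 41.8% of all genes lower and 39.5% higher, and 6 lower members and 1 higher did not overlap between groups (background 42.7% and 40.3%). *Mcl1*, *Bid* and *Pmaip1* met the thresholds of the study (background 22.1% lower and 21.1% higher). In both *Bak1* and *Bad*, control and LPS overlapped and LPS-MIC-1 was lower.

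Set against one another within a library, the classes shifted with the group. The 3 anti-apoptotic genes made up 25.9 to 26.5% of the family's summed FPKM in control, 44.2 to 45.2% with LPS and 12.1 to 18.2% with LPS-MIC-1. The effectors made up 58.0 to 58.9%, 39.8 to 40.8% and 72.2 to 79.3%, and the BH3-only genes 14.6 to 15.7%, 14.6 to 15.0% and 8.61 to 9.99%. The ratio of effector to anti-apoptotic FPKM was 2.23 ± 0.0273 in control, 0.901 ± 0.0209 with LPS and 5.12 ± 1.32 with LPS-MIC-1 (SD, n = 3), and the groups did not overlap. The ratio of *Bax* to *Bcl2* was 139 ± 4.44, 84.7 ± 1.43 and 159 ± 44.0, with the highest LPS-MIC-1 value, 210, in replicate 3, and control and LPS-MIC-1 overlapped. *Mcl1* alone supplied 78.1 to 96.1% of the anti-apoptotic FPKM across the 9 libraries, so these ratios are mostly ratios to *Mcl1*. They describe transcripts and carry no test.

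**Figure D2:**
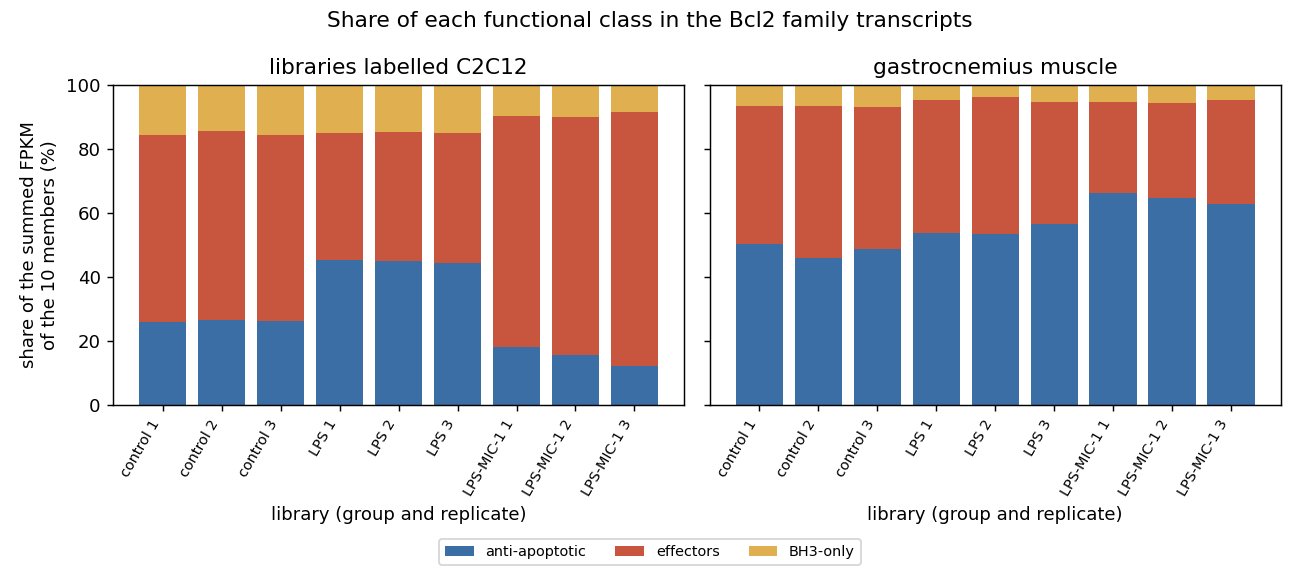
Share (%) of the summed FPKM of the 10 members (y) held by the anti-apoptotic genes, the effectors and the BH3-only genes in each library (x), in the cells on the left and in muscle on the right. The anti-apoptotic share was largest in LPS in the cells (44.2 to 45.2%) and in LPS-MIC-1 in muscle (62.7 to 66.3%).

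In gastrocnemius muscle the family was expressed at lower levels and *Mcl1* led in all groups. In control, *Mcl1* was at 37.8 ± 0.905 FPKM (SD, n = 3), *Bax* at 29.2 ± 2.59 and *Bak1* at 9.30 ± 1.36. *Bcl2l1*, *Bad*, *Bcl2l11* and *Bbc3* lay between 1.20 and 2.53, and *Bcl2l1* overlapped with *Bad* and *Bcl2l11* with *Bbc3*. *Bcl2* (0.723 ± 0.0784), *Pmaip1* (0.219 ± 0.106) and *Bid* (0.214 ± 0.114) were the lowest, and *Pmaip1* and *Bid* overlapped. These 3 genes had a mean under 1 FPKM over the 9 libraries and did not enter the test over 9475 genes, so 7 of the 10 members were tested. Their values below come from the same model without the filter (15434 genes), where FPKM values this low rest on few reads.

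**Figure D3:**
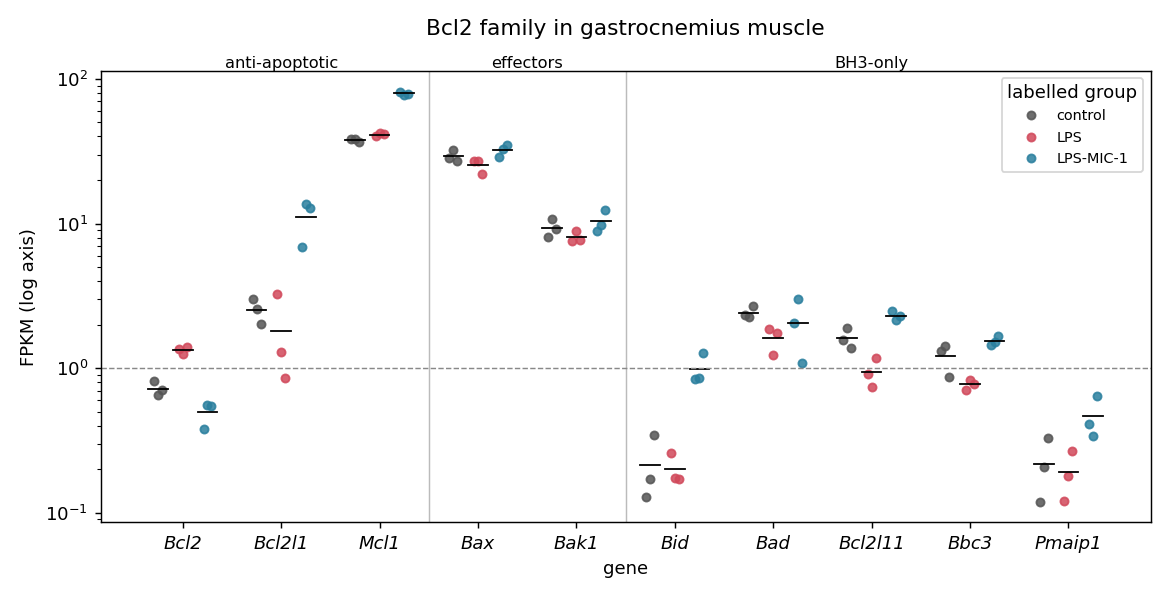
FPKM on a log axis (y) of the 10 members (x) in the 9 muscle libraries, drawn as for the cells, with a dashed line at 1 FPKM. *Mcl1* and *Bcl2l1* were highest in all 3 LPS-MIC-1 libraries, *Bcl2* was highest in LPS, and *Bid* and *Pmaip1* lay mostly under the line.

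For LPS against control in muscle, few members passed the test. The median log2 fold change was -0.55 over the 7 members tested and 0.01 over all genes tested. Of the 7 members tested, *Mcl1* was higher and *Bcl2l11* lower, against a background of 8.25% of all genes higher and 7.48% lower. In 1 higher and 3 lower members the groups did not overlap (background 18.8% and 17.7%). The calls of *Mcl1* and *Bcl2l11* were close to the threshold and were lost under most other settings. *Mcl1* lost it on leaving out any 1 of the 9 libraries (adjusted p from 0.0542 to 0.144), and *Bcl2l11* on leaving out any except control replicate 3 or LPS replicate 3. No member had an absolute log2 fold change above 1 together with an adjusted p under 0.05 (background 0.654% higher and 0.591% lower), where 1 was higher and 2 lower by limma at an unadjusted p under 0.05 (background 15.4% and 14.2%).

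In LPS-MIC-1 against LPS, 5 of the 7 members tested in muscle were higher: *Mcl1*, *Bcl2l1*, *Bax*, *Bcl2l11* and *Bbc3*. By limma 0 were lower, also at an unadjusted p under 0.05 (background 30.5%), and the background was 28.3% of all genes higher and 28.2% lower. The groups did not overlap for 6 higher and 0 lower members (background 32.5% and 31.7%). *Bcl2l1* and *Bcl2l11* also passed an absolute log2 fold change of 1 (background 9.67% higher and 5.44% lower), and *Bcl2l11* no longer did with a pseudocount of 1 (log2 fold change 0.77). Of the 7 tested members 5 were thus higher where 28.3% of all genes were, and this share is given without a test. The filter shaped these counts. It left out *Bcl2*, which was lower without it (log2 fold change -1.28), and *Bid* and *Pmaip1*, which were higher (1.84 and 0.96). *Bbc3* had a mean of 1.17 FPKM over the 9 libraries and passed the filter only through LPS-MIC-1. It entered the test because it was high there, so the filter favoured its place among the 5 higher members. The median log2 fold change was 0.92 over the 7 members, which is the value of *Bbc3*, and -0.01 over all genes tested. Quantile normalization shifted the median of all genes by -0.11 and lowered the share of higher genes among those past both the test and that fold from 64.0% to 53.9%. The members' direction remained, although *Bax* no longer passed the test (log2 fold change 0.25, adjusted p = 0.0802).

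*Mcl1* gave the most precise result. It measured 38.4, 38.3 and 36.8 FPKM in control, 40.1, 42.0 and 41.5 in LPS, and 81.6, 77.9 and 78.6 in LPS-MIC-1. The LPS-MIC-1 libraries were all well above the rest, and the narrower gap between LPS and control also left no overlap. It had a log2 fold change of 0.94 for LPS-MIC-1 against LPS (SE 0.0354, adjusted p = 1.5e-07), 1.07 against control (adjusted p = 6.6e-08) and 0.12 for LPS against control (adjusted p = 0.0498).

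*Bcl2l1* had the largest fold change among the tested members. It measured 2.99, 2.58 and 2.02 FPKM in control, 3.25, 1.30 and 0.857 in LPS, and 6.83, 13.7 and 12.8 in LPS-MIC-1. LPS replicate 1 lay above all controls and the other 2 LPS libraries below them, and the lowest LPS-MIC-1 library, replicate 1, still stood above all others. It rose by 2.70 on the log2 scale against LPS (SE 0.453, adjusted p = 0.00109) and by 2.04 against control (SE 0.453, adjusted p = 0.00475), with a value of -0.66 for LPS against control (95% confidence interval -1.70 to 0.38, adjusted p = 0.38).

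*Bcl2* fell in the comparison of LPS-MIC-1 with LPS, where *Mcl1* and *Bcl2l1* rose. It measured 0.809, 0.655 and 0.705 FPKM in control, 1.35, 1.25 and 1.39 in LPS, and 0.380, 0.556 and 0.546 in LPS-MIC-1. The 3 groups did not overlap, and LPS was the highest. Without the filter the log2 fold change was 0.80 for LPS against control (SE 0.188, adjusted p = 0.0369), -1.28 for LPS-MIC-1 against LPS (SE 0.188, adjusted p = 0.000805) and -0.48 for LPS-MIC-1 against control (adjusted p = 0.0743). *Bcl2* was thus highest in LPS in muscle and in the cells.

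The effectors varied less. *Bax* measured 28.3, 32.1 and 27.2 FPKM in control, 27.3, 26.9 and 22.0 in LPS, and 29.1, 32.6 and 35.2 in LPS-MIC-1. The LPS-MIC-1 libraries were above the LPS libraries and overlapped with control. On the log2 scale the fold change was 0.35 for LPS-MIC-1 against LPS (SE 0.107, adjusted p = 0.0229), a call that was lost without LPS replicate 3 (adjusted p = 0.0672), LPS-MIC-1 replicate 2 (adjusted p = 0.0592) or LPS-MIC-1 replicate 3 (adjusted p = 0.0754).

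*Bak1* measured 8.03, 10.7 and 9.12 FPKM in control, 7.62, 8.91 and 7.72 in LPS, and 8.93, 9.75 and 12.5 in LPS-MIC-1. LPS-MIC-1 and LPS just failed to overlap, at 8.93 against 8.91, and the control libraries lay across both. The log2 fold change of 0.35 between them did not pass the test (SE 0.146, adjusted p = 0.0726), and it did without LPS-MIC-1 replicate 1 (adjusted p = 0.0413).

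Of the BH3-only genes, *Bcl2l11* measured 1.57, 1.88 and 1.37 FPKM in control, 0.909, 0.746 and 1.17 in LPS, and 2.46, 2.14 and 2.28 in LPS-MIC-1. The groups did not overlap, and LPS was the lowest. The fitted log2 fold change was -0.72 for LPS against control (SE 0.189, adjusted p = 0.0357), 1.22 for LPS-MIC-1 against LPS (SE 0.189, adjusted p = 0.000692) and 0.50 for LPS-MIC-1 against control (adjusted p = 0.0507). The last value passed with a pseudocount of 1 (adjusted p = 0.0292), without the trend (0.0337), with only the 6 libraries compared (0.0346), and without control replicate 2 (0.0405), LPS replicate 2 (0.0382) or LPS replicate 3 (0.0357), and over all its alternatives the adjusted p ran from 0.0292 to 0.149.

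*Bbc3* measured 1.32, 1.43 and 0.867 FPKM in control, 0.705, 0.833 and 0.782 in LPS, and 1.46, 1.52 and 1.66 in LPS-MIC-1. The groups were again apart with LPS the lowest, although control replicate 3 lay close to LPS. It was higher in LPS-MIC-1 than in LPS (log2 fold change 0.92, SE 0.211, adjusted p = 0.00595), but it passed the filter only through LPS-MIC-1. *Bbc3* thus entered the test because it was high there. LPS against control gave -0.55 (adjusted p = 0.12), which passed only without control replicate 3 (log2 fold change -0.76, adjusted p = 0.0405).

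*Bid* measured 0.128, 0.170 and 0.344 FPKM in control, 0.259, 0.173 and 0.171 in LPS, and 0.842, 0.852 and 1.27 in LPS-MIC-1. Control and LPS overlapped, and the LPS-MIC-1 libraries were the highest. Without the filter its log2 fold change was 1.84 for LPS-MIC-1 against LPS (SE 0.302, adjusted p = 0.00149) and 1.83 against control (adjusted p = 0.00148).

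*Pmaip1* measured 0.119, 0.207 and 0.329 FPKM in control, 0.120, 0.181 and 0.268 in LPS, and 0.410, 0.339 and 0.643 in LPS-MIC-1. The LPS-MIC-1 libraries were above the other 2 groups, which overlapped. The log2 fold change without the filter was 0.96 for LPS-MIC-1 against LPS (SE 0.335, adjusted p = 0.0516).

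*Bad* measured 2.32, 2.24 and 2.67 FPKM in control, 1.87, 1.23 and 1.74 in LPS, and 2.05, 3.02 and 1.09 in LPS-MIC-1. The LPS-MIC-1 values spread across both other groups, and all 3 LPS values were below control. No comparison of *Bad* passed the test in muscle (adjusted p from 0.29 to 0.554).

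Against control, only *Bcl2l1* and *Mcl1* were higher in LPS-MIC-1 among the 7 tested, and 0 were lower by limma, also at an unadjusted p under 0.05 (background 30.7%), against a background of 30% of all genes higher and 28.5% lower. Both also passed an absolute log2 fold change of 1 (background 9.33% higher and 6.12% lower), although *Mcl1* was at 0.96 under quantile normalization, and 4 higher and 0 lower members did not overlap between groups (background 33.4% and 31.1%). The anti-apoptotic share of the family's FPKM was 46.0 to 50.2% in control, 53.3 to 56.4% with LPS and 62.7 to 66.3% with LPS-MIC-1, and the ratio of effector to anti-apoptotic FPKM was 0.938 ± 0.0864, 0.754 ± 0.0661 and 0.469 ± 0.0460 (SD, n = 3), with no overlap between groups. The ratio of *Bax* to *Bcl2* ran otherwise, at 40.9 ± 7.30 in control, 19.2 ± 2.98 with LPS and 66.5 ± 9.15 with LPS-MIC-1, and the ratio of *Bax* to *Bcl2l1* was 11.8 ± 2.08, 18.3 ± 8.89 and 3.13 ± 0.996. The ratios to *Bcl2* alone and to *Bcl2l1* alone thus ranked the group means otherwise than the ratio built on all 3 genes. For *Bax* to *Bcl2l1*, control (9.47 to 13.5) and LPS (8.38 to 25.6) overlapped. *Mcl1* supplied 84.6 to 94.9% of the anti-apoptotic FPKM in muscle, so the ratio built on all 3 is mostly a ratio to *Mcl1*.

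**Figure D4:**
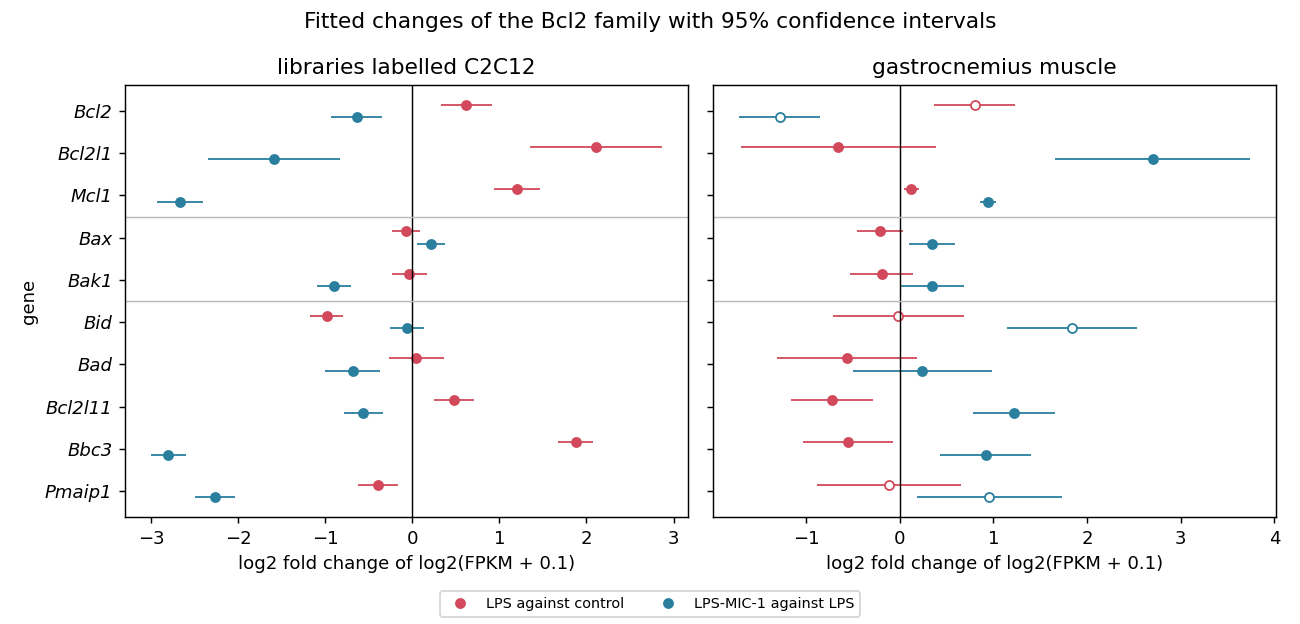
Fitted log2 fold change of log2(FPKM + 0.1) (x) with its 95% confidence interval for each member (y), in the cells on the left and in muscle on the right, for LPS against control and LPS-MIC-1 against LPS. Hollow points are members under a mean of 1 FPKM, fitted without the filter. LPS-MIC-1 against LPS gave -2.66 for *Mcl1* in the cells and 0.94 in muscle. The value of 0.22 for *Bax* in the cells turned to -0.15 under quantile normalization.

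Other cell types' genes moved with the muscle groups. The summed FPKM of 12 macrophage genes was 19.5 to 22.5 in control, 25.4 to 29.7 in LPS, and 40.9, 38.2 and 204 in LPS-MIC-1, where replicate 3 stood apart, with *Lyz2* at 78.3. The 7 neutrophil genes summed to 1.61 to 2.56, 1.58 to 2.02 and 10.6 to 17.0, and 12 muscle fibre genes to 242540 to 247565, 229345 to 232900 and 183293 to 197726. Sums in the same order were 27154 to 30042 in LPS-MIC-1 against 39449 to 43909 elsewhere for the myogenic list, 94.6 to 97.7, 61.4 to 63.4 and 77.9 to 89.4 for endothelium, 124 to 130, 129 to 132 and 136 to 155 for fibroblasts, and 321 to 326, 254 to 277 and 355 to 391 for fat. Intestinal epithelium genes summed to 4.77 to 5.77, 6.28 to 6.42 and 17.8 to 19.8, liver genes to at most 1.18, 0.0394 and 9.11, and lymphocyte genes to at most 1.08. Without LPS-MIC-1 replicate 3, *Mcl1*, *Bcl2l1*, *Bcl2l11* and *Bbc3* still passed the test against LPS, and over the 9 libraries left out in turn their log2 fold changes were at least 0.92, 2.31, 1.08 and 0.86. The part of these cell types in the members' changes was not tested.

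In the cell libraries the other lists also differed, with fibroblast genes at 0.0245 to 0.0543, 0.848 to 1.95 and 442 to 537 in control, LPS and LPS-MIC-1, and muscle fibre genes at 28.8 to 41.9, 10.6 to 14.7 and 739 to 1050. Fat genes were at 17.6 to 19.6, 74.4 to 86.9 and 24.6 to 27.4, neutrophil genes at 4.69 to 5.72, 11.8 to 15.5 and 5.81 to 6.86, and lymphocyte genes at 2.08 to 2.34, 9.31 to 9.59 and 1.06 to 1.57. Intestinal epithelium genes reached 10.9 in LPS-MIC-1 replicate 3 and at most 2.07 elsewhere, while endothelial and liver genes were at most 0.876 and 1.32. Their part in the members' changes was not tested.

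Genes that act beside the 10 members were read from lists of 66 further genes. The background in the cells was again 31.1% of all genes higher and 32.1% lower for LPS against control, and 41.4% higher and 43.2% lower for LPS-MIC-1 against LPS, and the list counts are given beside it as a description. Of 16 other Bcl2-related genes, 12 were tested in the cells, and 4 were higher and 2 lower with LPS, and 4 higher and 8 lower in LPS-MIC-1 against LPS. *Bmf*, a BH3-only gene, fell from 7.84 ± 0.687 FPKM in control to 2.30 ± 0.693 in LPS (SD, n = 3; log2 fold change -1.76, adjusted p = 0.00206). *Bok*, an effector relative, was listed at 0, 0 and 0.128 FPKM in LPS and measured 53.6 ± 8.07 in LPS-MIC-1. It passed the filter only through LPS-MIC-1, so it entered the test because it was high there. *Bcl2a1a* rose from 0.327 ± 0.0803 in control to 23.6 ± 2.14 in LPS, the only group through which it passed the filter. *Bcl2a1b* was at 81.4 ± 3.65 with LPS and listed at 3.01, 0 and 0 with LPS-MIC-1. The *Bcl2a1* genes are near-identical copies, so the split between them is uncertain.

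Downstream of the mitochondria, all 16 genes of the caspase list were tested in the cells, with 1 higher and 10 lower in LPS than in control, and 7 higher and 7 lower under LPS-MIC-1 than under LPS, which is near the background. The single higher gene with LPS became 2 without LPS-MIC-1 replicate 3 or with only the 6 libraries compared. *Apaf1*, the scaffold of the apoptosome, was lower under LPS-MIC-1 than under LPS (3.62, 2.47 and 0.0848 FPKM against 16.8 ± 0.542, adjusted p = 0.00633). Of the 8 inhibitor of apoptosis genes tested, 6 were lower and 1 higher in LPS-MIC-1 against LPS, led by *Birc3* (1.24, 0.193 and 0.0407 FPKM against 33.0 ± 1.82, log2 fold change -6.44, adjusted p = 3.5e-05) and *Xiap*, listed at 0.817, 0 and 0 in LPS-MIC-1 against 9.66 ± 1.04 in LPS (adjusted p = 0.00019). With LPS against control, 2 of the 8 were higher (1 to 5 over single libraries left out) and 1 lower. The lower gene was *Birc5*, which encodes survivin and is tied to cell division. It fell with LPS from 109 ± 3.60 to 22.1 ± 1.37 FPKM (log2 fold change -2.31, adjusted p = 1.18e-05) and measured 107, 68.3 and 117 in LPS-MIC-1. *Birc2* rose with LPS from 1.44 ± 0.734 to 3.75 ± 0.420 FPKM (log2 fold change 1.47, adjusted p = 0.0194).

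Among 9 death receptor genes tested in the cells, 6 rose and 2 fell with LPS, and 5 were higher and 4 were lower under LPS-MIC-1 against LPS. The 2 that fell became 1 without LPS-MIC-1 replicate 2, with a pseudocount of 1 or with a mean over 5 FPKM. *Fas* rose from 0.684 ± 0.129 to 8.14 ± 0.320 FPKM with LPS (log2 fold change 3.41, adjusted p = 2.7e-06), and *Cflar*, which blocks caspase-8, rose from 1.79 ± 0.906 to 7.39 ± 1.75 (adjusted p = 0.00311). *Ripk1* was listed at 0 in all 3 LPS libraries and measured 4.14, 5.87 and 1.51 FPKM in LPS-MIC-1, the only group through which it passed the filter. Of 13 regulators of the family, 7 rose and 4 fell with LPS, and 3 were higher and 9 lower under LPS-MIC-1 than under LPS. *Ddit3*, which encodes the stress factor CHOP, rose from 17.4 ± 1.53 to 183 ± 7.97 FPKM with LPS (log2 fold change 3.40, adjusted p = 2.05e-07). *Mdm2*, the p53 ligase, rose from 25.6 ± 0.414 to 194 ± 0.379 with LPS and was at 13.5 ± 7.38 in LPS-MIC-1 (log2 fold change against LPS -4.01, adjusted p = 1.4e-05). *Foxo3*, an activator of *Bcl2l11* and *Bbc3*, was at 33.8 ± 0.546 with LPS and 1.78 ± 0.564 with LPS-MIC-1 (log2 fold change -4.22, adjusted p = 2.2e-07).

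In muscle, 11 of the 13 regulators tested passed in LPS-MIC-1 against LPS, where the background was 28.3% of all genes higher and 28.2% lower. Of the 13, 5 were higher and 6 lower than in LPS, led by *Foxo1* at 35.8 ± 1.89 against 2.85 ± 0.0824 FPKM (SD, n = 3; log2 fold change 3.61, SE 0.0597, adjusted p = 1.6e-09) and *Foxo3* at 3.64 ± 0.192 against 0.539 ± 0.141 (log2 fold change 2.57). *Foxo3* passed the filter only through LPS-MIC-1, so it entered the test because it was high there. FoxO factors drive muscle protein breakdown and can induce *Bcl2l11* and *Bbc3*. Of 8 death receptor genes, 4 were higher and 2 lower, with *Casp8* at 3.57 ± 0.155 against 0.901 ± 0.363 (log2 fold change 1.95, adjusted p = 0.000566) and *Fas* at 6.91 ± 0.768 against 2.79 ± 0.740 (log2 fold change 1.31, adjusted p = 0.00042).

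Of 6 other Bcl2-related genes tested in muscle, 2 were higher and 2 lower under LPS-MIC-1 than under LPS. *Bnip3*, a mitophagy receptor that FoxO3 is known to induce in muscle, rose from 115 ± 6.37 to 284 ± 13.4 FPKM (log2 fold change 1.30, adjusted p = 2.1e-07), and *Bcl2l12* fell from 11.3 ± 0.497 to 4.36 ± 0.510 (log2 fold change -1.36, adjusted p = 2.4e-06). Of 13 caspase list genes, 3 were higher and 6 lower, with *Casp2* at 2.04 ± 0.0589 against 1.29 ± 0.162 (adjusted p = 0.00333). Of 4 inhibitor of apoptosis genes, 2 were higher and 0 lower by limma, also at an unadjusted p under 0.05: *Birc3* at 3.24 ± 0.295 against 1.81 ± 0.0797 (adjusted p = 0.000967) and *Birc6* at 3.76 ± 0.0967 against 2.74 ± 0.0964 (adjusted p = 0.00106).

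LPS against control passed the test for few of these genes in muscle, as it did for few of all genes (8.25% higher and 7.48% lower). It was passed by 1 of 6 other Bcl2-related genes (higher), 3 of 13 caspase list genes (2 higher, 1 lower), 0 of 4 inhibitor of apoptosis genes (1 higher at an unadjusted p under 0.05), 2 of 8 death receptor genes (both lower) and 4 of 13 regulators (3 higher, 1 lower). Most of these counts rested on single libraries. Over the 9 libraries left out in turn, the other Bcl2-related genes had 0 to 1 higher (0 without any 1 control or LPS library or LPS-MIC-1 replicate 2), and the caspase list 1 to 3 higher (1 without control replicate 1 or 2 or LPS replicate 1 or 2). The death receptor genes had 1 to 2 lower (1 without any 1 control library or LPS replicate 2 or 3) and 0 to 1 higher (1 without control replicate 1). The regulators had 0 to 2 higher, below 3 in every case, and 0 to 1 lower (0 without control replicate 3, LPS replicate 1 or LPS replicate 3). *Dffa*, the inhibitor of the apoptotic nuclease, rose from 11.8 ± 0.812 to 17.2 ± 0.409 FPKM (log2 fold change 0.54, adjusted p = 0.00178), and *Dffb*, the nuclease itself, fell from 2.52 ± 0.257 to 1.56 ± 0.0687 (log2 fold change -0.66, adjusted p = 0.00595). *Mdm2* was higher at 15.4 ± 1.57 against 11.3 ± 1.81 FPKM (adjusted p = 0.0477).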

How the data were processed

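RNA-seq was performed on 18 libraries. Reads were quantified by the authors with kallisto and tximport, and 1 FPKM value for every gene symbol and library was deposited in each experiment, and the submitters' notes name mm9. Relative depth came from the steps between values below 0.1 FPKM, and the absolute depth is unknown, so no counting interval was possible. The deposited muscle table held 9 unnamed value columns that were not used. The 6 deposited DESeq2 tables (base means, log2 fold changes, standard errors and p-values) were not used.

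Groups came from the labels. Each experiment was fitted apart with limma 3.58.1 in R 4.3.3 on log2(FPKM + 0.1), as FPKM is not a count, with 3 group means, eBayes with trend, genes with a mean over 1 FPKM and Benjamini-Hochberg adjustment over all genes tested, so a fold change understates that of low genes. A mean FPKM over 1 and an absolute log2 fold change over 1 follow the study's methods. They were paired with an adjusted p under 0.001 in the cells, as in the study, and under 0.05 in muscle. There the study names an adjusted p for the genes it clustered, and a p not called adjusted for its counts of changed genes. An exact permutation test of 3 against 3 libraries cannot go below 0.1 and was not used. The fit was tested on simulated data. Plots were made in Python 3.11.15 (matplotlib 3.10.9).

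All 10 members are described. From each further list and comparison the 2 genes with the largest change past the test were eligible to be named, and of the marker lists the most abundant ones. Members and lists were chosen with earlier results of these data known. All 10 symbols matched the RefSeq gene table, and positions and sequences were not used here. Some of the eligible genes are not reported here.

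Replicate numbers were not treated as pairs in the main fit. Deviations of same-numbered libraries from their group means correlated between -0.0757 and 0.0573 in the cells and between -0.054 and 0.0823 in muscle. The alternatives were pseudocounts of 1 and 0.01, no filter, a mean over 5 FPKM, quantile normalization, median-ratio scaling, no trend in eBayes, a replicate block, only the 6 libraries compared, and leaving out each library in turn.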

Additional observations from a re-analysis of the deposited data

Results flagged for a closer look

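For 12 of the 30 pairs of member and comparison, the libraries of the compared groups did not overlap in either experiment and the direction in the cells was opposite to that in muscle. Of the 7 members tested in both experiments, 2 were so for LPS against control, 5 for LPS-MIC-1 against LPS and 2 for LPS-MIC-1 against control, where 15.1%, 33.2% and 32.8% of the 8422 genes tested in both met the same rule. The difference between the experiments was not tested, because the 2 tables were normalized separately, and the identity markers of the cell libraries went against their labels.

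For LPS against control these were *Bcl2l11*, with log2 fold changes of 0.48 in the cells and -0.72 in muscle, and *Bbc3*, with 1.88 and -0.55. For LPS-MIC-1 against LPS they were *Bcl2l1* (-1.59 and 2.70), *Mcl1* (-2.66 and 0.94), *Bak1* (-0.90 and 0.35), *Bcl2l11* (-0.56 and 1.22), *Bbc3* (-2.80 and 0.92) and *Pmaip1* (-2.26 and 0.96). For LPS-MIC-1 against control they were *Mcl1* (-1.46 and 1.07), *Bid* (-1.04 and 1.83), *Bbc3* (-0.92 and 0.36) and *Pmaip1* (-2.66 and 0.84). In muscle, the values of *Bbc3* with LPS, *Bak1*, *Pmaip1* and *Bbc3* against control did not pass the test, and those of *Bid* and *Pmaip1* come from the fit without a filter. *Bbc3* passed the muscle filter only through LPS-MIC-1, where it was highest.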

How the results depend on the processing

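Over all alternatives the members' log2 fold changes were recomputed as 903 values, and 853 kept their direction and their side of the threshold, 29 lost the call, 24 of them for LPS against control in muscle, 11 gained it and 10 reversed. In the cells, LPS against control gave -0.0948 to 0.1447 for *Bad* over single libraries left out (reversed without control replicate 2). LPS-MIC-1 against LPS gave -0.148 for *Bax* and 0.00424 for *Bid* under quantile normalization, and -0.1203 to 0.0281 for *Bid* over single libraries left out (reversed without LPS-MIC-1 replicate 1). LPS-MIC-1 against control gave -0.47 for *Bax* and 0.129 for *Bcl2l11* under quantile normalization, and -0.09606 to 0.114 for *Bcl2* and -0.1461 to 0.00341 for *Bcl2l11* over single libraries left out (reversed without LPS-MIC-1 replicate 3). In muscle, *Bad* gave -0.0775 to 0.6156 against LPS (reversed without LPS-MIC-1 replicate 2) and -0.6444 to 0.0487 against control (reversed without LPS-MIC-1 replicate 3). The cause was not tested.

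In the cells, the count of members higher under LPS-MIC-1 than under LPS was 1, was 0 under quantile normalization, and ranged from 0 to 1 over single libraries left out. Against control it ranged from 0 to 1. In muscle, the single member lower with LPS became 0 without a filter, with a mean over 5 FPKM (*Bcl2l11* was then not tested), with only the 6 libraries compared and with the replicate block, and 0 to 2 without single libraries. The single member higher became 0 under quantile normalization, without the trend, with only the 6 libraries and with the replicate block, and 0 without any single library. Without a filter it stayed 1, but *Mcl1* lost the call (adjusted p = 0.0608) and *Bcl2*, then tested, passed (adjusted p = 0.0369). Against LPS, LPS-MIC-1 had 1 lower member without a filter (*Bcl2*) and 3 higher ones of 4 tested at a mean over 5 FPKM. With 0.1 added to both levels, the ratio of *Bax* to *Bcl2* was 132.8 in the cells' control, 82.43 in their LPS group and 55.08 in muscle LPS-MIC-1. Of the 9 pairs of same-numbered libraries, 5 in muscle and 2 in the cells correlated more than pairs with other numbers. In muscle these included every pair of LPS with LPS-MIC-1 (0.0823, 0.0626 and 0.0282). No such correlation exceeded 0.0823, and values this low cannot show whether libraries of the same number were handled together. The block changed no other count of members by over 1.5 times.

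Depth limits *Bcl2*, *Bid* and *Pmaip1* in muscle, where values under 1 FPKM rest on few reads, and the C2C12 LPS-MIC-1 replicate 3, the shallowest library.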
